A study of Mus musculus with 4 samples.

Results

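The BCL2 family genes that are not among the classical p53 targets were followed in hematopoietic stem and progenitor cells (HSPCs) after deletion of Chaf1b, a subunit of the histone chaperone complex CAF-1. The set held 10 of the 43629 genes in the count tables, fixed by symbol: the pro-survival genes Bcl2, Bcl2l1, Mcl1 and Bcl2a1b, and the pro-death genes Bcl2l11, Bid, Bad, Bak1, Bmf and Bik. All 10 had counts in every library and all 10 passed the filter on low counts. CD117+ bone marrow HSPCs of C57Bl/6 mice, homozygous for a Chaf1b allele with loxP sites (genotype Chaf1b (fl/fl)), were transduced by spinfection with a retrovirus. The control HSPCs (2 libraries) received the empty vector MIGR1, and the Chaf1b-deleted HSPCs (2 libraries, labelled Chaf1b (-/-)) received MIGR1-Cre, whose recombinase removes the floxed sequence. All 4 cultures were kept in Stemspan SFEMII with SCF at 50 ng/mL, IL-3 at 10 ng/mL, IL-6 at 20 ng/mL by the labels (the study's methods give another amount) and LDL, and cells positive for the vector's eGFP were sorted at 48 h. Both sexes were used in the study, and the labels name neither the animals nor the age behind a library. Nothing states that 2 libraries of a group came from separate animals, so the p-values measure the spread between these libraries, which may be technical.

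BCL2 family proteins decide whether the outer mitochondrial membrane is opened in apoptosis. BCL2, BCL-XL (from Bcl2l1), MCL1 and A1 (from the Bcl2a1 genes) hold the pore-forming proteins BAK and BAX in check. BH3-only proteins, among them BIM (Bcl2l11), BID, BAD, BMF and BIK, bind the pro-survival proteins or activate the pore formers, after which cytochrome c leaves the mitochondria and caspases are activated. In hematopoiesis MCL1 is required for the survival of stem and progenitor cells, BIM is a main trigger of death on withdrawal of cytokines, and A1 is abundant in maturing myeloid cells.

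The starts of 9 of the 10 genes were matched in the RefSeq promoter table (build GRCm38.p6), which gave 15 start sites. The 250 bases before a start are shown for the members with an unadjusted p under 0.05 in the comparison described below, Bcl2l11, Mcl1 and Bcl2l1, so that their windows can be compared. The Bcl2l11 window (chr2:128125788-128126037, plus strand, the more upstream of its tabulated starts) has a GC content of 72.0%. The Mcl1 window (chr3:95658471-95658720, plus strand) has 64.4% and the Bcl2l1 window (chr2:152831729-152831978, minus strand, the most upstream of 3 tabulated starts) 47.6%. Capitals mark the only match, on either strand, to the motifs searched.
Bcl2l11: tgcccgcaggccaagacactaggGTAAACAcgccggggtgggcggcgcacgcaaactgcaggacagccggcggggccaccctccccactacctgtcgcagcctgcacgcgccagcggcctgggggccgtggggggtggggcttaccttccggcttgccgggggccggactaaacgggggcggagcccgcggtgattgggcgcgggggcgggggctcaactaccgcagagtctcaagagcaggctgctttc
Mcl1: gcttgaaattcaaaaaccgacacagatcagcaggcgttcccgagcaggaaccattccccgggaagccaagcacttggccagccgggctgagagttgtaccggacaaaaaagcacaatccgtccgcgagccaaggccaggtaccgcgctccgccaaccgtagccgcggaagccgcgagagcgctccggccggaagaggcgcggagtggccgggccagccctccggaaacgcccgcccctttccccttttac
Bcl2l1: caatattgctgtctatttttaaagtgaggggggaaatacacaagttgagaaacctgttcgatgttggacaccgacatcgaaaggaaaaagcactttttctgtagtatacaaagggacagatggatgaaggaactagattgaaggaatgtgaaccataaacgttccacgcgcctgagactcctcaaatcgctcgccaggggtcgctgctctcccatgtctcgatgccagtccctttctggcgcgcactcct
The match in the Bcl2l11 window was to the FOXO motif TGTTTAC, read on the opposite strand and beginning at base -227 from the start. The window of the downstream Bcl2l11 start (chr2:128127325-128127574) held no match to any motif searched. The FOXO match thus belongs to the upstream start only. The FOXO motif was found in 1 of the 15 member windows and in 3.17% of the 32851 promoter windows of the table. The ETS motif CCGGAAGT (2.88% of all windows), the STAT motif TTCNNNGAA (7.02%) and the CRE motif TGACGTCA (1.55%) were found in 0 of the 15 member windows. Both strands were searched, and a match is a description of the sequence only.

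Reads counted on genes numbered between 18468637 and 25409926 per library, so that 3 counts corresponded to 0.118 to 0.162 CPM (counts per 1000000 counted on genes). Chaf1b itself (chr16:93884146-93906360) was at 80.3 and 57.9 CPM in the control libraries and at 16.1 and 17.9 CPM in the deleted libraries, a log2 fold change of -2.01 (SE 0.25, adjusted p = 0.033, edgeR quasi-likelihood test). The label CD117+ was checked against Kit, the gene of CD117, which lay between 95.6 and 124 CPM, and Cd34, between 76.9 and 134 CPM. Neutrophil markers were abundant too, with 10 genes summing to 47570 and 55390 CPM in the controls and 69500 and 52600 CPM in the deleted libraries. Deleted library 1 stood apart from the other 3 libraries in 18 interferon-stimulated genes, which summed to 2064 CPM there and to between 231 and 272 CPM elsewhere. The change of each member is therefore also given without that library. Gene positions here and after are those of NCBIM37, the Ensembl name of mm9.

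Among the 10 members, 0 were called higher and 0 lower in Chaf1b-deleted HSPCs, where a call is a change of at least 1.5-fold with an adjusted p under 0.05 (edgeR quasi-likelihood test, p adjusted over all genes by the Benjamini-Hochberg method). Over the 16500 genes tested, 0.37% were called higher and 0.00606% lower, the latter being Chaf1b alone. Before adjustment, Bcl2l11, Mcl1 and Bcl2l1 had p under 0.05, all on the side of higher level, where 9.15% of all genes were found, and 0 members were on the lower side, against 3.1% of all genes. Of the other tools run on the same genes, edgeR's exact and likelihood ratio tests each called 1 member higher (3.25% and 3.53% of all genes), DESeq2 called 2 (3.09%), and 0 were called lower by any of them. In CPM, both deleted libraries lay above both controls for 4 members (Bcl2l1, Mcl1, Bcl2a1b and Bcl2l11), as for 21.4% of all genes, and below both for Bik, as for 22.9%. The median log2 fold change was 0.70 over the 4 pro-survival members and 0.18 over the 6 pro-death members, beside -0.030 over all genes tested. Without deleted library 1 these medians were 0.53 and -0.13, and without deleted library 2 they were 0.85 and 0.32. The pro-death medians include Bik, which passed the low-count filter only through the controls, and this favours a lower median. In bulk libraries such as these, a change in the number of cells of a type and a change in RNA per cell cannot be told apart.

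**Figure D1:**
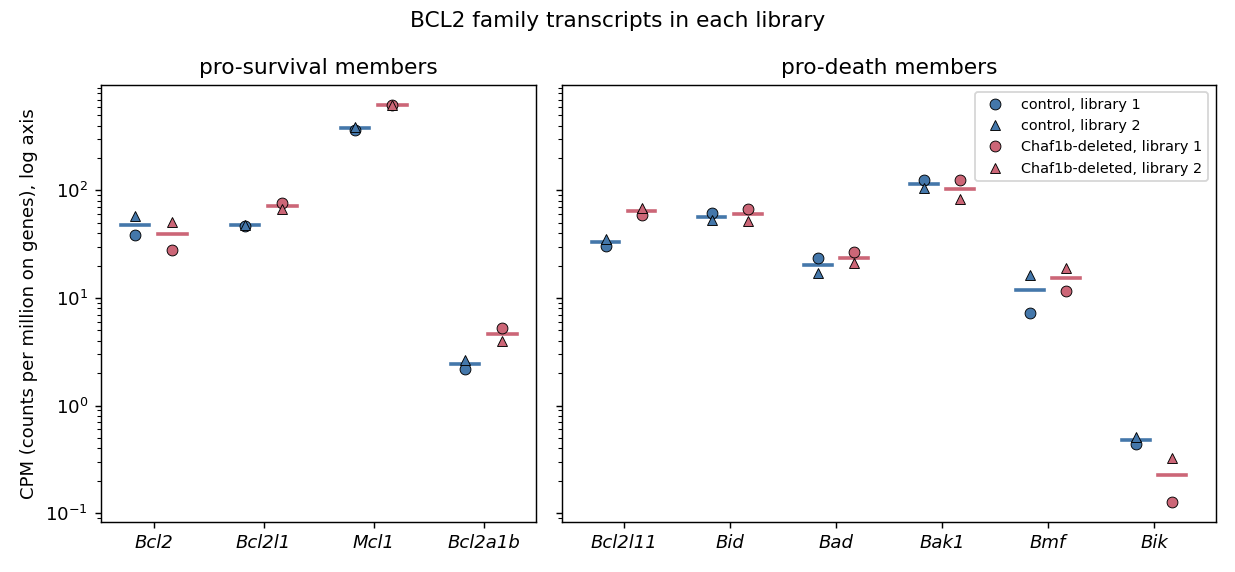
Level of each member in each library, in CPM on a log axis, with pro-survival genes at left and pro-death genes at right. Circles are library 1 and triangles library 2 of the control (blue) and Chaf1b-deleted (red) HSPCs, and bars are the means of 2 libraries; Mcl1 is the most abundant by counts (366 to 625 CPM) and Bik the least (0.127 to 0.512 CPM).

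Of the pro-survival genes, Mcl1 (chr3:95462643-95467099), which codes for a short-lived protein that restrains BAK and BIM, had by far the most counts. It was at 366 and 390 CPM in the controls and at 622 and 625 CPM in the deleted libraries (378 ± 17.3 against 623 ± 2.57, mean ± SD, n = 2 each). The 2 groups did not overlap, and both deleted libraries exceeded the higher control by more than the controls differed from each other. The fold change was 1.68 (log2 0.75, SE 0.23, unadjusted p = 0.0111, adjusted p = 0.229, edgeR quasi-likelihood test). DESeq2 called Mcl1 higher (adjusted p = 0.0493), where 3.09% of the 15220 genes with an adjusted p were called higher. The log2 fold change of Mcl1 lay between 0.65 and 0.86 over the alternatives tried, with the lower bound reached without deleted library 1.

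Bcl2l1 (chr2:152593052-152657464), the gene of BCL-XL, was at 46.9 and 47.6 CPM in the controls and at 76.8 and 67.8 CPM in the deleted libraries. The controls were nearly equal and both deleted libraries lay above them. Its fold change was 1.57 (log2 0.65, SE 0.22, unadjusted p = 0.0189, adjusted p = 0.284, edgeR quasi-likelihood test). Without deleted library 1, the higher of the pair, the log2 fold change was 0.44, under the 1.5-fold threshold, and without deleted library 2 it was 0.84.

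Bcl2a1b (chr9:89094047-89102665), 1 of the closely related Bcl2a1 genes for A1, was scarce, with 2.20 and 2.68 CPM in the controls and 5.27 and 3.95 CPM in the deleted libraries, from 50, 68, 124 and 73 counts. The groups did not overlap, although the counting interval of deleted library 2 (3.14 to 4.97 CPM, 95% Wilson interval, counting error only) overlapped that of control library 2 (2.11 to 3.39 CPM). The fitted log2 fold change was 0.96 with an SE of 0.43 (adjusted p = 0.426, edgeR quasi-likelihood test). Its level is uncertain: 72.3% of its exonic stretches of 31 bases occur elsewhere in the genome, and 401 of its 817 exonic bases are shared with Mthfs on the same strand. Adding the counts of the copy Bcl2a1c, which had between 0 and 4 counts per library, gave a log2 fold change of 0.98. Without deleted library 1, the log2 fold change of Bcl2a1b was 0.61.

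Bcl2 (chr1:108434755-108610851), the founding member of the family, was the only pro-survival gene with a negative fold change, and its groups overlapped. It was at 38.4 and 57.3 CPM in the controls and at 28.0 and 50.6 CPM in the deleted libraries. Library 1 was the lower of the pair in each group, and the difference between libraries of a group exceeded the difference of the group means. The log2 fold change was -0.28 (SE 0.29, adjusted p = 0.769, edgeR quasi-likelihood test), and it was 0.0013 without deleted library 1 and -0.63 without deleted library 2.

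Of the pro-death genes, Bcl2l11 (chr2:127951774-127988283), which codes for BIM, had the largest change of the set for its error. It was at 30.3 and 35.4 CPM in the controls and at 59.4 and 68.6 CPM in the deleted libraries (32.8 ± 3.59 against 64.02 ± 6.48, mean ± SD, n = 2 each). Both deleted libraries lay well above both controls, and against the control mean they stood at nearly the same log2 difference, 0.98 and 0.99. The fold change was 1.98 (log2 0.98, SE 0.20, unadjusted p = 0.00151, adjusted p = 0.114, edgeR quasi-likelihood test). The gene's annotated region overlaps no other gene, and 0.892% of its exonic stretches of 31 bases occur elsewhere. Whether Bcl2l11 was called depended on the test. It was called higher by edgeR's exact test (adjusted p = 0.0147, where 3.25% of all genes were called higher), by its likelihood ratio test (adjusted p = 0.0136, 3.53% of all genes), by DESeq2 (adjusted p = 0.00865) and by the quasi-likelihood test without a filter on low counts (adjusted p = 0.0141, 2.57% of 31399 genes). Over the alternatives tried, its log2 fold change lay between 0.88 and 1.08, and it was 0.98 without the library high in interferon-stimulated genes.

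The groups overlapped in the BH3-only genes Bmf, Bid and Bad. Bmf (chr2:118354493-118375423), whose protein is held at the cytoskeleton in healthy cells, was at 7.26 and 16.4 CPM in the controls and at 11.6 and 18.9 CPM in the deleted libraries, so that the controls alone differed by more than the group means (log2 fold change 0.37, SE 0.41, adjusted p = 0.781, edgeR quasi-likelihood test). The log2 fold change of Bmf was 0.60 without deleted library 1, 1.06 without control library 2 and -0.095 without control library 1. Bid (chr6:120841948-120866871), which links death receptors to mitochondria after cleavage by caspase-8, was at 61.3 and 52.6 CPM and at 67.6 and 52.2 CPM (log2 fold change 0.11, SE 0.25). Bad (chr19:7016351-7026388), which is switched off by phosphorylation downstream of growth factors, was at 23.7 and 17.1 CPM and at 26.5 and 20.9 CPM (log2 fold change 0.26, SE 0.29). In Bid and Bad, library 1 was the higher of the pair in each group, the reverse of the order seen in Bcl2 and Bmf. Without deleted library 1 the log2 fold changes of Bid and Bad were -0.21 and -0.045.

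Bik (chr15:83357292-83375065), a BH3-only gene best known from epithelial and B cells, was near the limit of detection. It had 10 and 13 counts in the controls and 3 and 6 in the deleted libraries, or 0.44 and 0.512 CPM against 0.127 and 0.325 CPM. Bik thus passed the low-count filter only through the controls, which favours a lower level in the deleted libraries. The 95% Wilson intervals of the deleted libraries (0.0433 to 0.375 CPM and 0.149 to 0.709 CPM) overlapped those of the controls (0.239 to 0.81 CPM and 0.299 to 0.875 CPM). The fitted log2 fold change was -1.09 with an SE of 0.76 (adjusted p = 0.628, edgeR quasi-likelihood test), and a difference was not detectable at this depth. Without deleted library 1 the log2 fold change of Bik was -0.62.

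Bak1 (chr17:27156755-27165954), the only pore former of the set, was the most abundant pro-death gene. It was at 124 and 105 CPM in the controls and at 124 and 84.0 CPM in the deleted libraries, so that deleted library 1 was close to the higher control and deleted library 2 lay below both. The log2 fold change was -0.097 (SE 0.28, adjusted p = 0.926, edgeR quasi-likelihood test). Its direction depended on single libraries, with -0.53 without deleted library 1 and 0.25 without deleted library 2. Bid, Bad and Bak1 share 628, 517 and 357 exonic bases with Bcl2l13, Gpr137 and Ggnbp1, and Bcl2 shares 558 with D630008O14Rik, each on the opposite strand. The libraries were stranded but the strand setting of the counting is not given in the sources used here, and without it reads of such pairs cannot be told apart.

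**Figure D2:**
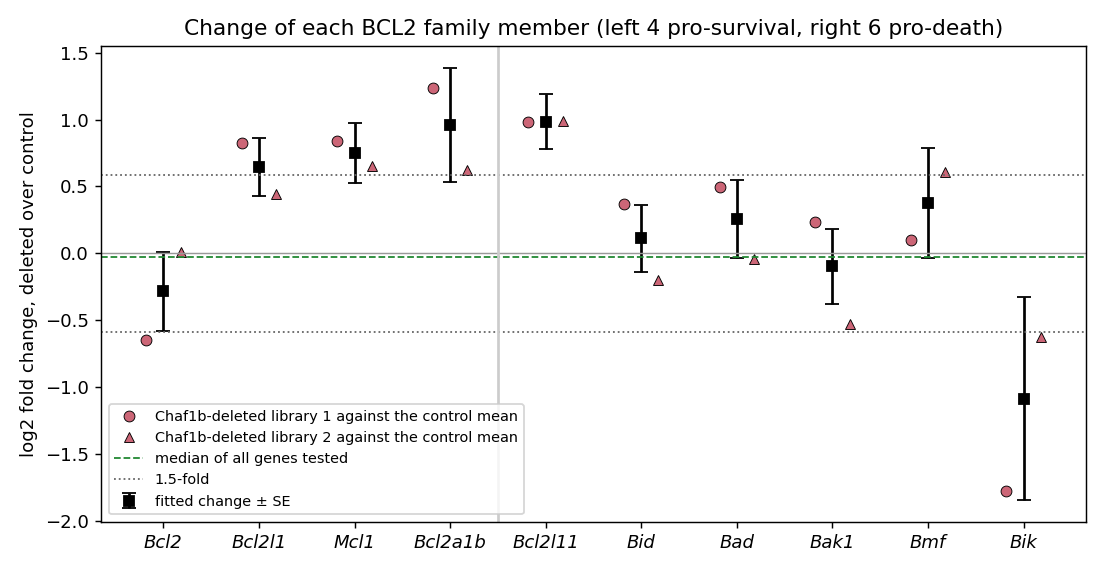
Log2 fold change of each member, Chaf1b-deleted over control, with the fitted value and its standard error in black (edgeR quasi-likelihood fit) and the 2 deleted libraries against the control mean in red. The dashed line is the median of all genes tested (-0.030) and the dotted lines mark 1.5-fold. Bcl2l11, Mcl1, Bcl2l1, Bcl2a1b and Bmf have both deleted libraries above 0. Those of Bid, Bad, Bak1 and Bcl2 lie on either side of it, and those of Bik lie below it.

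To compare levels between genes, CPM was divided by the kilobases of annotated exon (RPKM). In control HSPCs the mean RPKM was 108 for Mcl1, 47.6 for Bak1, 16.1 for Bid, 10.2 for Bad, 9.99 for Bcl2l1, 6.65 for Bcl2, 4.09 for Bcl2l11, 2.98 for Bcl2a1b, 2.25 for Bmf and 0.505 for Bik. The ranges of neighbours in this order did not overlap, except those of Bad and Bcl2l1 and those of Bcl2a1b and Bmf. In Chaf1b-deleted HSPCs the first 3 were again Mcl1 (179 RPKM), Bak1 (43.1 RPKM) and Bid (16.9 RPKM), but the range of Bid overlapped that of Bcl2l1 (15.3 RPKM), which stood above Bad (11.8 RPKM). Bcl2l11 (7.97 RPKM) and Bcl2a1b (5.64 RPKM) stood above Bcl2 (5.46 RPKM) in the deleted cells, the second pair with overlapping ranges, and below it in the controls.

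The pro-survival members together reached 123 and 133 RPKM in the controls and 205 and 206 RPKM in the deleted libraries. The pro-death members together reached 86.4 and 75.0 RPKM in the controls and 93.4 and 72.5 RPKM in the deleted libraries. Thus the pro-survival sum separated the groups, whereas the pro-death sum did not. The ratio of pro-survival to pro-death transcripts was 1.42 and 1.78 in the controls and 2.20 and 2.83 in the deleted libraries, a difference of 0.65 on the log2 scale (1.57-fold) with a pooled SD between libraries of 0.24. No p is given for this ratio over chosen members, and with 2 libraries against 2 the smallest p an exact permutation test allows is 0.333.

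The sums rest on few genes, since Mcl1 made up 84.0% to 87.3% of the pro-survival sum and Bak1 between 48.1% and 59.8% of the pro-death sum. Without Mcl1 the ratio was 0.208 and 0.284 in the controls and 0.285 and 0.361 in the deleted libraries, a log2 difference of 0.40, with the higher control nearly equal to the lower deleted library. When the median of the log2 levels was taken in each class in place of the sum, the difference turned to -0.27. In every library the pro-death median then lay between Bcl2l11 and Bad, with Bik as the lowest gene. Bik was near the limit of detection, and no median without it was computed, so this change of sign is not taken as a result.

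**Figure D3:**
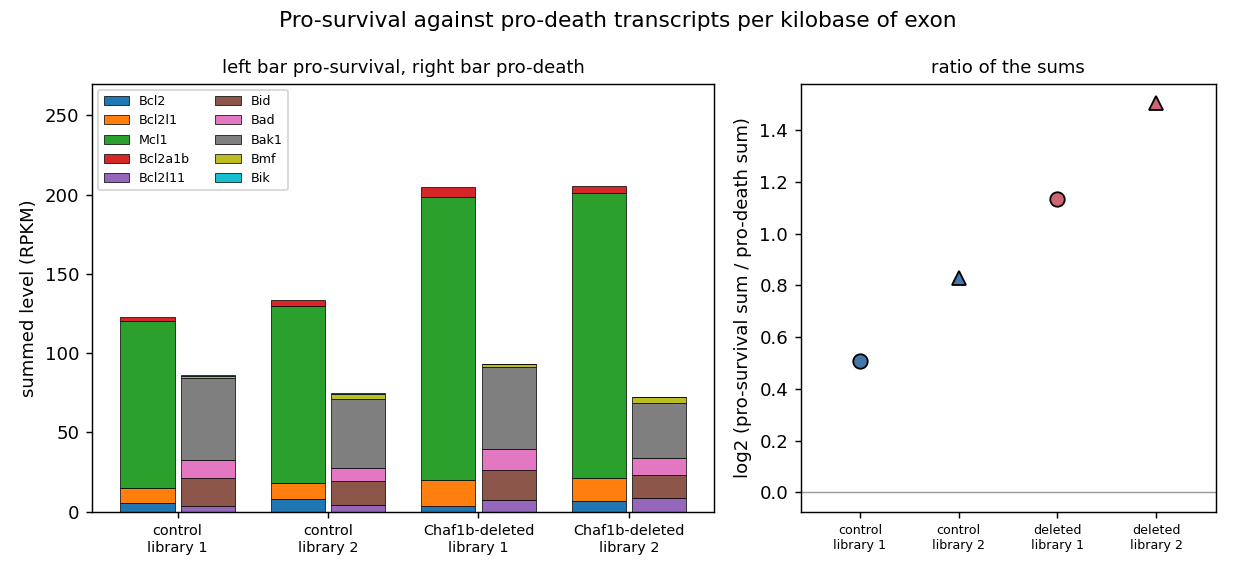
Summed RPKM of the 4 pro-survival genes (left bar) and the 6 pro-death genes (right bar) in each library, stacked by gene, and at right the log2 ratio of the sums. Mcl1 and Bak1 make up most of the pro-survival sum and the largest part of the pro-death sum, and the log2 ratio is 0.51 and 0.83 in the controls (blue) and 1.13 and 1.5 in the deleted libraries (red).

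Within this pattern the balance of Bcl2 and of Mcl1 against Bcl2l11 differed from that of the sums. This did not hold for every antagonist. Mcl1 against Bak1 went with the sums, with Mcl1 at 105 and 112 RPKM in the controls and 178 and 179 RPKM in the deleted libraries. Bak1 was at 51.6 and 43.6 RPKM in the controls and at 51.4 and 34.9 RPKM in the deleted libraries. The pairs were chosen after their values were seen and are given without a test. Bcl2 exceeded Bcl2l11 in RPKM by a ratio of 1.41 and 1.81 in the controls, while the ratio was 0.526 and 0.823 in the deleted libraries, where Bcl2l11 was the higher gene. Mcl1 exceeded Bcl2l11 by 27.8 and 25.4 in the controls and by 24.1 and 21.0 in the deleted libraries, so that this ratio was lower in both deleted libraries even though Mcl1 itself was higher. The share of Bcl2l11 in the pro-death sum was 4.37% and 5.87% in the controls and 7.93% and 11.8% in the deleted libraries. The ratio of Bcl2l1 to Bcl2, both pro-survival, was 1.86 and 1.26 in the controls and 4.17 and 2.04 in the deleted libraries.

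Markers of the cell types that the sort could hold were summed in each library beside the members. Of all genes tested, 21.4% were higher in both deleted libraries, 22.9% lower in both, and 0.37% called higher. Dendritic cell markers summed to 60.8 and 178 CPM in the controls and to 367 and 213 CPM in the deleted libraries, with 7 of 10 genes higher in both deleted libraries and 3 called. Megakaryocyte markers summed to 104 and 103 CPM and to 156 and 273 CPM, with 6 of 9 genes higher in both. Neutrophil markers were higher in both deleted libraries for 6 of 10 genes, with 1 called, and lymphoid markers for 7 of 12 genes. The lymphoid sums were 102 and 127 CPM in the controls and 129 and 103 CPM in the deleted libraries. Most of them was Nkg7, at 79.4 and 96.6 CPM in the controls and 80.6 and 63.7 CPM in the deleted libraries. Stem and progenitor markers summed to 8299 and 8162 CPM in the controls and to 7596 and 6000 CPM in the deleted libraries. Most of this sum came from Mpo, Elane and Prtn3 in every library, so it says little about the other genes of the list. Of the 12 genes, 0 were called, with 1 gene higher (Cd34) and 2 lower (Elane and Myb) in both deleted libraries. Monocyte markers ranged from 261 to 720 CPM, mast cell, basophil and eosinophil markers from 694 to 1192 CPM, and erythroid markers from 39.8 to 67.7 CPM, with 0 genes called in each. The genes higher in both deleted libraries numbered 3 of 10, 2 of 10 and 2 of 9 in these lists, and those lower in both 0, 3 and 0. Every matched marker gene had counts in at least 1 library. The part of these cell types in the levels of Mcl1, Bcl2l1, Bcl2a1b and Bcl2l11 was not tested.

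The rest of the apoptosis pathway was read from lists of 61 genes, of which 59 were matched and 55 tested. As for the members, 0 were called higher and 0 lower by the quasi-likelihood test, and likewise 0 by the exact test, the likelihood ratio test and DESeq2. Before adjustment, 7 of the 55 had p under 0.05 with a higher level (9.15% of all genes) and 0 with a lower level (3.1%). In CPM, 15 of the 55 lay above both controls in both deleted libraries (21.4% of all genes) and 8 below both (22.9%). Their median log2 fold change was 0.082, beside -0.030 over all genes tested. It was 0.0048 without deleted library 1 and 0.14 without deleted library 2.

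The BCL2 family genes known as p53 targets were Bbc3 (PUMA) and Pmaip1 (NOXA), both BH3-only, and the pore former Bax. Bbc3 was at 6.64 and 7.005 CPM in the controls and at 18.8 and 12.0 CPM in the deleted libraries (log2 fold change 1.22, SE 0.36, unadjusted p = 0.00981, adjusted p = 0.222, edgeR quasi-likelihood test). Pmaip1, whose protein binds MCL1, was at 39.7 and 46.0 CPM and at 73.2 and 70.0 CPM (log2 fold change 0.77, SE 0.21, adjusted p = 0.206, edgeR quasi-likelihood test). Both lay higher in each deleted library than in each control, as Bcl2l11 did. Bax was at 100.9 and 62.9 CPM and at 98.6 and 73.6 CPM, with overlapping groups as for Bak1 (log2 fold change 0.11).

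Among the remaining relatives, 8 of the 11 matched genes were tested. Bcl2l15 was at 0.616 and 0.708 CPM in the controls and at 1.87 and 2.44 CPM in the deleted libraries (log2 fold change 1.71, SE 0.51, unadjusted p = 0.0105, adjusted p = 0.228, edgeR quasi-likelihood test). Bok, a further pore former, and Bcl2l14 were also higher in both deleted libraries at low levels, Bok at 1.27 and 1.79 CPM against 0.484 and 0.866 CPM and Bcl2l14 at 5.99 and 5.79 CPM against 2.16 and 4.72 CPM. Neither had an unadjusted p under 0.05. Bcl2l2, the gene of the pro-survival protein BCL-W, was at 28.3 and 32.7 CPM in the controls and at 23.4 and 27.8 CPM in the deleted libraries, the only tested gene of this list lower in both (log2 fold change -0.23, SE 0.22, adjusted p = 0.738, edgeR quasi-likelihood test). Bcl2 and Bcl2l2 thus had negative fold changes, unlike the pro-survival genes Mcl1 and Bcl2l1, but neither was called. That of Bcl2 (log2 -0.28, SE 0.29) was 0.0013 without deleted library 1, so no split within the pro-survival genes is drawn from these signs. The mitophagy receptors Bnip3 and Bnip3l had log2 fold changes of -0.48 and 0.076, and Bcl2l12 and Bcl2l13 of 0.036 and -0.15, with overlapping groups in all 4. The 3 genes not tested, Hrk, Bcl2l10 and Bcl2a1c, had at most 4 counts in a library.

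**Figure D4:**
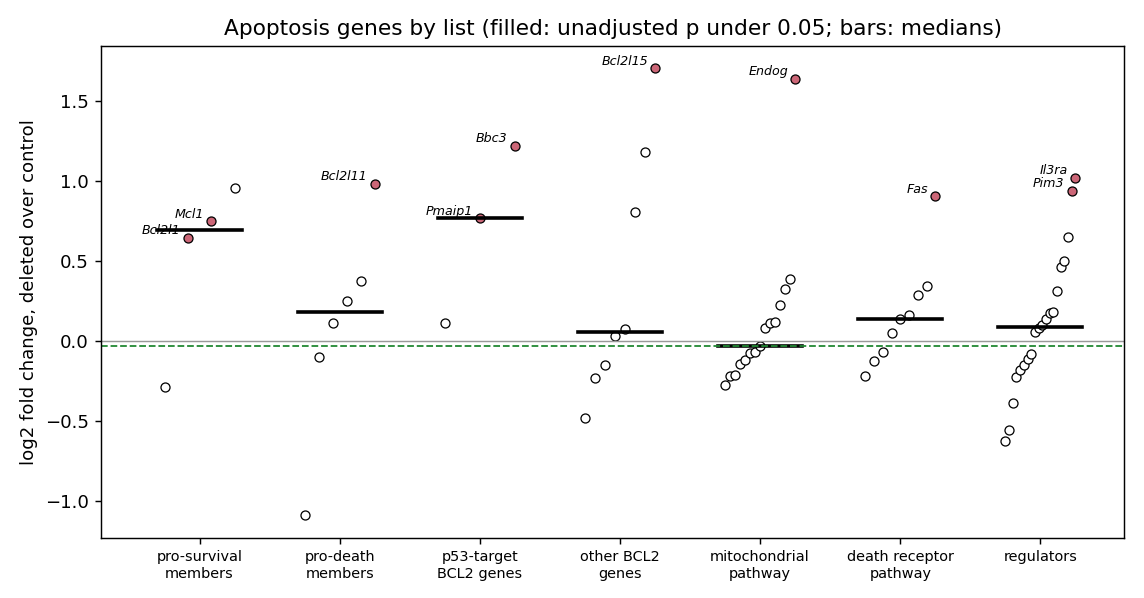
Log2 fold change, Chaf1b-deleted over control, of the tested genes in each apoptosis list, with each gene as a point and the list median as a black bar. Filled points have an unadjusted p under 0.05 (edgeR quasi-likelihood test) and are named. The dashed line is the median of all genes (-0.030), and no gene shown has an adjusted p under 0.05. Medians are 0.70 for pro-survival and 0.18 for pro-death members, the latter with Bik included.

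Downstream of the mitochondria, the apoptosome genes had small fold changes. Apaf1, the apoptosome scaffold, had a log2 fold change of -0.14, Casp9, its initiator caspase, of 0.12 and Xiap, a caspase inhibitor, of 0.082. Cycs, for cytochrome c, was at 11.04 and 10.9 CPM in the controls and at 12.5 and 15.8 CPM in the deleted libraries (log2 fold change 0.39, SE 0.27). Of the 15 genes of this list, Endog, for a mitochondrial nuclease, had an unadjusted p under 0.05, with 1.41 and 2.36 CPM in the controls and 6.50 and 4.93 CPM in the deleted libraries (log2 fold change 1.64, SE 0.46, adjusted p = 0.211, edgeR quasi-likelihood test). In the death receptor pathway, Fas was at 12.9 and 11.6 CPM and at 22.1 and 23.1 CPM (log2 fold change 0.91, SE 0.25, unadjusted p = 0.00705, adjusted p = 0.203, edgeR quasi-likelihood test). Casp8, which cleaves BID, and its inhibitor Cflar had log2 fold changes of 0.29 and 0.16, and neither had an unadjusted p under 0.05.

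Among 20 regulators of the family, Foxo3, a transcription factor that acts on Bcl2l11, was at 145 and 162 CPM in the controls and at 172 and 203 CPM in the deleted libraries (log2 fold change 0.31, SE 0.20, adjusted p = 0.589, edgeR quasi-likelihood test). Both deleted libraries were above both controls, by less than for Bcl2l11. The enzymes that set the turnover of MCL1 protein were lower in deleted library 1 than in any other library. Huwe1, a ubiquitin ligase for MCL1, was at 756 and 668 CPM in the controls and at 296 and 682 CPM in the deleted libraries, and Usp9x, which removes ubiquitin from MCL1, at 374 and 354 CPM and at 221 and 333 CPM. Their log2 fold changes of -0.55 and -0.39 had unadjusted p of 0.147 and 0.135 in the quasi-likelihood fit across all genes. Dynll1 and Dynll2, the dynein light chains that bind BIM and BMF, had log2 fold changes of 0.18 and 0.47 with overlapping groups.

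Of the 20 regulators, 5 were higher and 4 lower in both deleted libraries, near the shares of all genes tested (21.4% and 22.9%). The cytokine receptors and survival kinases among those named differed in direction. Kit, the receptor for SCF, had overlapping groups (log2 fold change -0.077). Il3ra, a chain of the IL-3 receptor, was at 10.4 and 12.99 CPM in the controls and at 27.1 and 18.8 CPM in the deleted libraries (log2 fold change 1.02, SE 0.31, unadjusted p = 0.0124, adjusted p = 0.241, edgeR quasi-likelihood test). Of the PIM kinases, which phosphorylate BAD, Pim3 was higher in both deleted libraries, at 52.1 and 33.4 CPM against 18.4 and 27.8 CPM (log2 fold change 0.94, SE 0.33, unadjusted p = 0.0229). Pim1 was lower in both, at 268 and 228 CPM against 287 and 495 CPM (log2 fold change -0.62, SE 0.30, unadjusted p = 0.0777), and Pim2 had overlapping groups (log2 fold change 0.18). Without the low-count filter, 4 of the other apoptosis genes, Bbc3, Endog, Pim3 and Il3ra, were called higher, as were 2.57% of the 31399 genes in that fit. Against the control mean, deleted library 2 alone stood at a log2 difference of 0.74 for Bbc3, 0.62 for Il3ra, 0.46 for Pim3 and -0.14 for Huwe1, smaller in size than the fitted change in each.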

How the data were processed

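RNA of 4 HSPC libraries, 2 control and 2 Chaf1b-deleted, was sequenced from stranded, ribo-depleted total RNA. The authors aligned reads to mm9 with STAR and counted them per gene with HTSeq, and the deposited values are raw counts without normalization, 1 table per library. The annotation release and strand setting are not given in the sources used here. Rows for reads outside genes were left out. Reads without a feature were 42.3% and 42.1% of unique reads in control libraries 1 and 2, and 35.8% and 48.3% in deleted libraries 1 and 2. Of 43629 identifiers, 33068 were named from the NCBIM37 annotation, and these hold 96.9% to 98.4% of the counts. Groups and replicate numbers come from the labels.

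CPM was scaled to the total counted on genes and RPKM to the union exon length. Differential expression was computed with edgeR 4.0.16 (R 4.3.3, limma 3.58.1) on genes kept by its expression filter (minimum count 10), with TMM factors between 0.925 and 1.06, glmQLFit and glmQLFTest without a covariate, and Benjamini-Hochberg adjustment over 16500 genes. A call needed a 1.5-fold change and an adjusted p-value below 0.05, as in the study. SE is the fold change on the log2 scale divided by the root of the test's F. Intervals are 95% Wilson intervals for counting error only, since reads carry no molecular identifiers. Sequences were taken from RefSeq (GRCm38.p6) and stretches of 31 bases were searched in NCBIM37. The fits were tested on simulated data.

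The members, gene lists and tests were chosen with earlier results of these data known. Genes named are the members, Chaf1b, the listed relatives and regulators, genes of the apoptosis lists with an unadjusted p under 0.05, and genes that overlap a member. Bcl2a1a, Bcl2a1d and the erythroid marker Ahsp were not matched and not analysed here, nor was the promoter of Bik. The alternatives were other normalizations and filters, edgeR's exact, likelihood ratio and bias-adjusted tests, DESeq2 1.42.0, the replicate number as a block, other thresholds, other length scalings, and each library left out in turn. The labels do not say whether same-numbered libraries are paired, and they were not paired in the main fit. The correlation of same-numbered deviations over the genes tested was 0.0174, a single value that cannot exclude a shared source.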

Additional observations from a re-analysis of the deposited data

How the results depend on the processing

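Depth limited Bik, with at most 13 counts in a library, and Bcl2a1b, with at most 124. The 61 genes called higher and 1 lower over all genes became 27 higher with DESeq2's size factors, 30 higher with library size alone, 3 and 0 with at least 10 counts in every library (where Bik was not tested), 808 and 79 without a low-count filter, 537 and 37 with the exact test, 583 and 40 with the likelihood ratio test, 471 and 32 with DESeq2, and 0 and 0 at 2-fold with an adjusted p under 0.01. With the replicate number as a block, which the labels do not tie to a shared animal, they were 14 and 0, Chaf1b was at -1.98 (adjusted p = 0.0592), and 0 members were called. Without 1 library each, between 125 and 331 genes were called higher and between 6 and 42 lower. In such fits the group with 1 library is assumed to vary like the other group. Of the members, 1 was called higher without a low-count filter, 1 with the exact test, 1 with the likelihood ratio test (Bcl2l11 each time) and 2 with DESeq2 (Mcl1 and Bcl2l11), against 0 otherwise. Of the other apoptosis genes, 4 were called without a low-count filter. Chaf1b lost its call with at least 10 counts in every library (-2.00, adjusted p = 0.0651) and at 2-fold with an adjusted p under 0.01 (-2.01), and lay between -2.24 and -1.74 without 1 library. The log2 difference of the survival to death ratio was 0.40 without Mcl1 and -0.27 from medians, and between 0.46 and 0.83 without 1 library. The value from medians gives Bik, near the limit of detection, the same weight as the other members, and it was not computed without Bik. Without 1 library, the fold change of 5 members changed sign on the log2 scale. Bak1 lay between -0.53 and 0.25 (0.035 without control library 1, 0.25 without deleted library 2), Bmf between -0.095 and 1.06 (-0.095 without control library 1), Bcl2 between -0.63 and 0.016 (0.016 without control library 2, 0.0013 without deleted library 1), Bid between -0.21 and 0.39 (-0.0079 without control library 2, -0.21 without deleted library 1) and Bad between -0.045 and 0.52 (-0.045 without deleted library 1). The cause was not tested. The fold changes of Bcl2l11, Mcl1, Bcl2l1 and Bcl2a1b kept their sign under every alternative that gave a value. Bik also kept its sign, but it passed the low-count filter only through the controls, where it was higher. Its sign is therefore not taken as a stable direction.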
